A study of Mus musculus with 16 samples.

Results

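The nuclear genes of oxidative phosphorylation were examined as a gene group in striatal tissue and in its astrocytes. Members were the rows whose gene symbol begins with Nduf, Uqcr, Cox4 to Cox8, Atp5 or Sdha to Sdhd, without pseudogenes, and this rule found 93 of 17097 genes. It took 7 core and 30 accessory subunits of complex I, 4 subunits of complex II, 8 of complex III, 10 common and 7 tissue-restricted subunits of complex IV and its relatives, 15 of ATP synthase and 10 assembly factors. Ndufa4 is counted by its name with the accessory subunits of complex I, and is left out of the counts and sums of complex IV. The remaining 2 members, Atp5s and Atp5sl, carry the name of ATP synthase but are not subunits of it. Their current symbols are Dmac2l for Atp5s and Dmac2 for Atp5sl, and they were kept apart from the 10 assembly factors here. The subunits encoded by mitochondrial DNA are not analysed here.

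The libraries came from whole striata of male wild-type C57BL/6J mice aged 63 days, collected 2 h after an injection. The 4 groups, each of 4 libraries with replicate numbers 2 to 5, were CNO IP and vehicle IP, and CNO input and vehicle input. CNO mice received clozapine N-oxide, the ligand of designer receptors, at 1 mg/kg, and vehicle mice received vehicle. IP is RNA bound to hemagglutinin-tagged ribosomes of astrocytes, and input is RNA of the cleared lysate from the same striata. The labels name neither the receptor nor the carrier and promoter of the tag, and no group with CNO but without the receptor was analysed here. The design text counts 4 mice, but the titles give 8 mouse codes, and each code has 1 IP and 1 input library. Should the codes not stand for separate animals, the p-values would cover only the spread among these libraries, which may be technical. IP libraries held 52.1 to 61.5 M reads (M, mega) and input libraries 32.8 to 40.3 M. All 14 astrocyte markers were higher in IP than in input in both injection groups, and their summed level was 36030 to 39578 CPM (reads scaled to the size of the library) in CNO IP, 34163 to 41556 in vehicle IP, 4143 to 5179 in CNO input and 4105 to 4554 in vehicle input. Lists of other cell types were higher in IP too: 6 of 6 ependymal markers and 7 of 8 striatal interneuron markers in both injection groups, and of 9 oligodendrocyte markers 8 in CNO mice and 6 in vehicle mice. All 11 medium spiny neuron, 10 microglia and 9 endothelial markers were lower in IP. The 12 pan-neuronal markers were mixed, with 1 higher and 6 lower in CNO mice, and 3 higher and 6 lower in vehicle mice. Their summed level was 4448 to 5471 CPM in CNO IP and 5590 to 6394 CPM in CNO input. In vehicle mice it was 4271 to 5397 CPM in IP and 5325 to 5931 CPM in input. The part of these cells in the IP values was not tested.

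Oxidative phosphorylation couples the oxidation of nutrients to the synthesis of ATP on the inner mitochondrial membrane. Complex I takes electrons from NADH and complex II from succinate, complex III passes them to cytochrome c, and complex IV hands them to oxygen. The proton gradient built by complexes I, III and IV drives ATP synthase, also called complex V. Most subunits are encoded in the nucleus, made on cytosolic ribosomes and imported. Astrocytes are known for strong glycolysis, but they also hold a full respiratory chain.

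The promoters of these genes are shown because respiratory genes are known to share binding sites for NRF1, for ETS-family factors such as GABP, and for YY1. RefSeq gave a promoter of 250 bases before to 50 bases after the start for 78 of the 93 members, on build GRCm38.p6. The letters searched on both strands, with any overlap allowed, were CCGGAAG for ETS, AAGATGGC for YY1 and, for NRF1, the palindrome that stands in capitals in the Uqcrc1 promoter. The NRF1 letters stood in 7 member promoters (8.97%), against 1.73% of all 13126 promoters of genes in the files. The ETS letters stood in 18 (23.1%, against 15.3%) and the YY1 letters in 10 (12.8%, against 3.99%). A match is a description of letters and not a site of binding. Below, a match is in capitals and all sequences run 5′ to 3′. Uqcrc1, a core protein of complex III, lies on the + strand at chr9:108936398-108936697 and holds the NRF1 letters. Cox6a1, a complex IV subunit on the − strand at chr5:115348909-115349208, holds the NRF1 and the ETS letters. Cox6b1 (chr7:30626065-30626364, − strand) holds the ETS letters, and its isoform Cox6b2 (chr7:4753045-4753344, − strand) holds none. This pair is shown because its members took opposite directions between IP and input.
Uqcrc1: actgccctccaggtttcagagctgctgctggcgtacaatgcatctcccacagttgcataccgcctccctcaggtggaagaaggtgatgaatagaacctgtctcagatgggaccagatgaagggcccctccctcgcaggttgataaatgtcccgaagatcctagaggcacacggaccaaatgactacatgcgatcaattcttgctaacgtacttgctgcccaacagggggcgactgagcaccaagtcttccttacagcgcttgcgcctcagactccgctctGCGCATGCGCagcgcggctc
Cox6a1: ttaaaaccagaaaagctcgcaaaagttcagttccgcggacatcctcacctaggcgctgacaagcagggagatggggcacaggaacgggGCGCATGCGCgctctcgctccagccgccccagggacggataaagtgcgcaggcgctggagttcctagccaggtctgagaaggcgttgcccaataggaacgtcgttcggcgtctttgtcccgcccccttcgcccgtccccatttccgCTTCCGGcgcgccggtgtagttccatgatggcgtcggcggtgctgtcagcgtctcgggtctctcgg
Cox6b1: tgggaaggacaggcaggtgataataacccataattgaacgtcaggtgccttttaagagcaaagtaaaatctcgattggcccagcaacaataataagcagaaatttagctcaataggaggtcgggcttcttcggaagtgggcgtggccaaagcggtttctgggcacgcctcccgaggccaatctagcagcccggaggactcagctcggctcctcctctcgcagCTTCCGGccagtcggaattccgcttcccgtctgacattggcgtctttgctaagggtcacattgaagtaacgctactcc
Cox6b2: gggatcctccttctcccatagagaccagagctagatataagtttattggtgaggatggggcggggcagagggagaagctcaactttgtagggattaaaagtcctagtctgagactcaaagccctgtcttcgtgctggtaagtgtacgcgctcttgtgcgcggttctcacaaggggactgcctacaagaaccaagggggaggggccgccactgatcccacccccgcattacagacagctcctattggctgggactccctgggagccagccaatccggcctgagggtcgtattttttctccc

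CpG dinucleotides numbered 15 in the Uqcrc1 promoter, 32 in that of Cox6a1, 17 in that of Cox6b1 and 10 in that of Cox6b2. The median was 20 over the member promoters and 19 over all promoters. The 4 tissue-restricted isoforms with a promoter held 0 of the searched letters and a median of 8.5 CpG dinucleotides.

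The members together took 0.907 to 0.969% of the reads in CNO IP, 0.956 to 1.05% in vehicle IP, 1.19 to 1.34% in CNO input and 1.22 to 1.35% in vehicle input. These shares of total reads lay in IP below those in input without overlap. In CPM, where library sizes were normalized, the summed levels of the members overlapped. They were 10304 to 10931 CPM in CNO IP, against 10572 to 12112 CPM in CNO input. In vehicle mice they were 10597.5 to 11274 CPM in IP, against 11153 to 11813.5 CPM in input. Per kilobase of transcript, Atp5b, the catalytic beta subunit of ATP synthase, had the highest level of that complex, with 832 CPM per kilobase in CNO IP, 823 in vehicle IP, 612 in CNO input and 637 in vehicle input. Atp5a1, its alpha partner, followed with 518 CPM per kilobase in CNO IP, 512 in vehicle IP, 344 in CNO input and 358 in vehicle input. In complex IV, Cox8a had 463 CPM per kilobase against 458 for Cox4i1 in CNO IP and 500 against 474 in vehicle IP, and was ahead in 3 of 4 libraries of each. Cox4i1 was ahead in every input library, with 774 CPM per kilobase against 639 for Cox8a in CNO input and 785 against 656 in vehicle input. Ndufa4, named for complex I but known to sit with complex IV, had 248 CPM per kilobase in CNO IP, 267 in vehicle IP, 555 in CNO input and 561 in vehicle input. In 11 members over 20% of the transcript's 50-base windows also occur in other annotated genes or pseudogenes, so that counting can have lost or split their reads: Atp5f1, Atp5g2, Atp5h, Atp5l, Cox5b, Cox7c, Ndufa12, Ndufb4, Ndufs3, Ndufs5 and Uqcrb. Their values are uncertain, and their median level was 36.2 CPM, against 78.5 CPM for the 81 other members with an annotation.

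**Figure D1:**
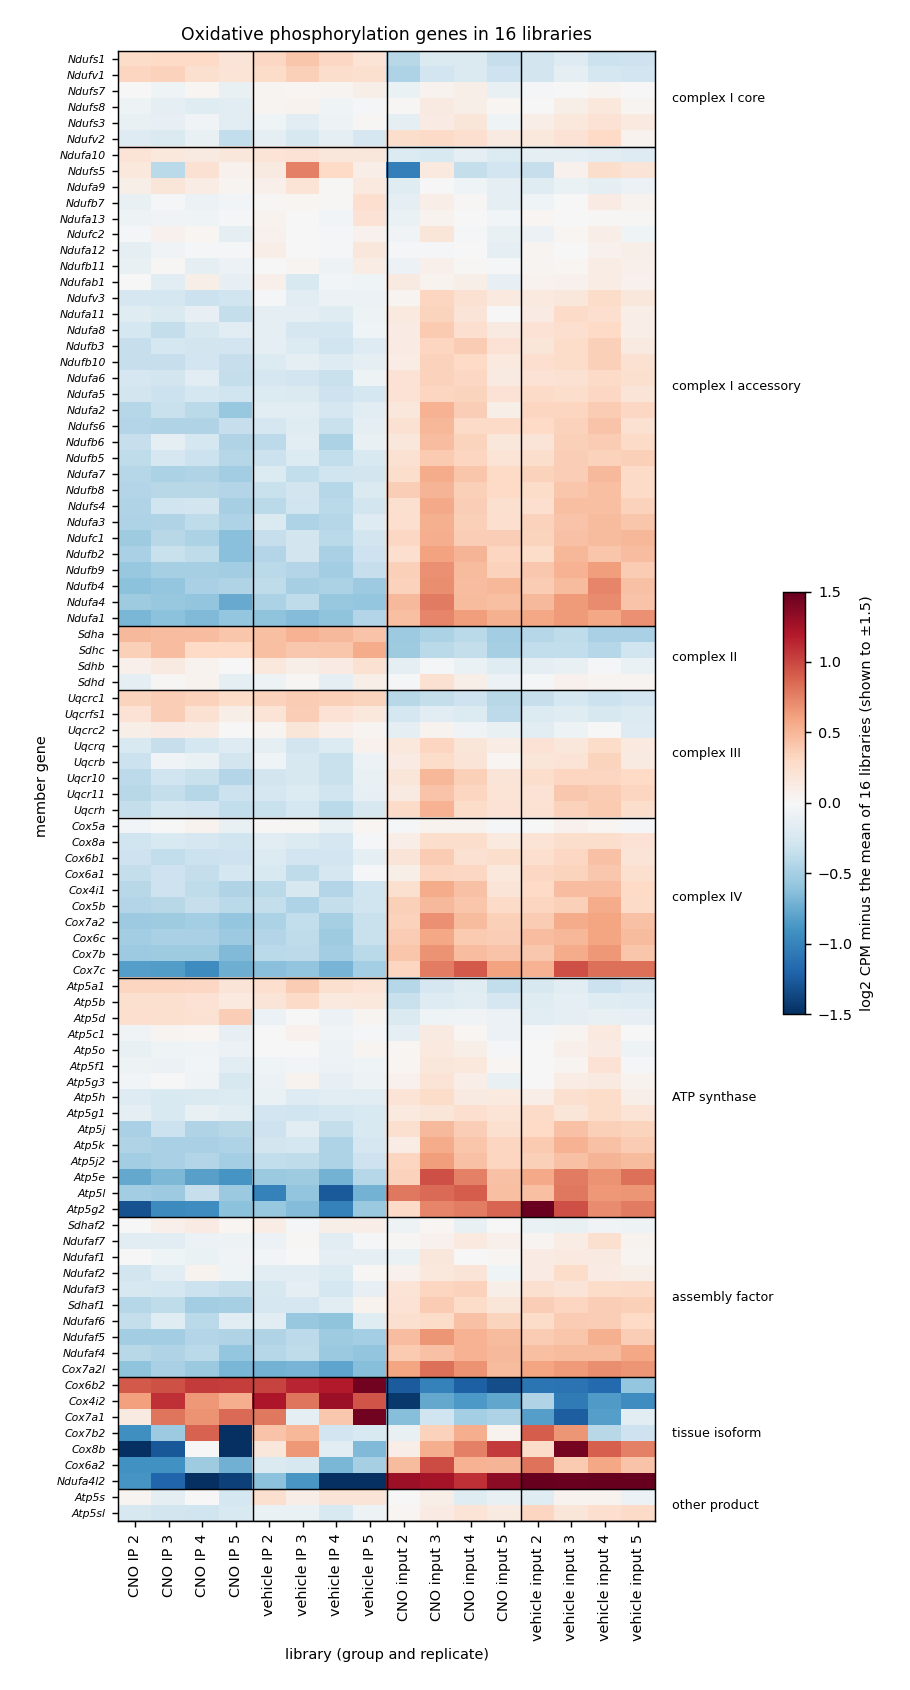
Levels of 92 of the 93 members (rows, by class and then by the vehicle IP over input ratio) in each of the 16 libraries (columns), coloured by log2 CPM minus the gene's mean over the libraries, with the scale shown to ±1.5. Most rows are blue in the 8 IP libraries and red in the 8 input libraries. Rows that show the opposite include Sdha, Sdhb and Sdhc of complex II, parts of complexes I and III, Atp5a1, Atp5b and 3 tissue-restricted isoforms. Differences between CNO and vehicle are small beside those between IP and input.

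The first comparison set CNO IP against vehicle IP, which asks what the RNA on astrocyte ribosomes did 2 h after the injection. Of the 92 members tested, 1 was higher in CNO IP, the ATP synthase delta subunit gene Atp5d, and 7 were lower. The lower genes were Ndufa2, Ndufa7, Ndufb10, Ndufs6 and Ndufv3, all accessory subunits of complex I, the complex II assembly factor Sdhaf1, and Atp5s. All these differences were small, between -0.30 and 0.31 on the log2 scale. By limma, complex II, complex III, complex IV and the core of complex I held 0 called members. At an unadjusted p under 0.05, 0 members of complex II, 2 of complex III, 3 of complex IV and 1 of the core passed. Over all 15598 genes tested, 10.2% were called higher and 7.07% lower by limma at a Benjamini-Hochberg adjusted p under 0.05, so the share of members called lower, 7.61%, was near the background and the share called higher, 1.09%, was below it. At an unadjusted p under 0.05, 26 of the 92 members passed, against 4620 of all 15598 genes. The shares called at the adjusted p moved with the scaling. With upper quartile scaling 25 members (27.2%) were lower, against 12.5% of all genes, and with total reads 14 (15.2%), against 10.4% of all genes, so the nearness to the background held in the scaling given first and not in these. Of all called genes 59.2% were higher in that scaling, 39.3% with upper quartile scaling and 44.6% with total reads. The count of lower members was 3 without replicate 4 of CNO IP, 4 without replicate 5 of CNO IP and 3 without replicate 2 of vehicle IP.

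The median of the members was slightly lower in CNO IP. Their median log2 difference was -0.07, against -0.01 over all genes, and 79 of 92 (85.9%) were below 0, against 51.7% of all genes. These are genes of the same libraries. By library, the median log2 CPM over all members was 5.94 to 6.01 in CNO IP and 5.98 to 6.10 in vehicle IP, with overlap. In complex I accessory subunits 29 of 30 were below 0, with a median of -0.09, and in complexes III and IV all 8 and all 10 were, with medians of -0.02 and -0.10. The values of 16 members lay in CNO IP below those in vehicle IP without overlap and those of 2 above, Atp5d and Atp5l (an uncertain value because of shared sequence), where 10.1% of all genes lay below and 12.8% above. For single members the median standard error was 0.05, and for 84 of the 92 the 95% interval of the difference lay within ±0.5. That band is wider than the median shift of -0.07. Short transcripts as a whole shared this shift, since genes of up to 1000 bases had a median of -0.08 and members of that length -0.10. Up to 500 bases, however, the 12 members had a median of -0.11 and all genes -0.01. Markers of several cell types also lay below 0: 11 of 14 astrocyte markers, 2 of them called lower, with a median of -0.14, 6 of 6 ependymal markers with a median of -0.36, and 8 of 9 endothelial markers with a median of -0.30, the ependymal and endothelial ones with 0 called by limma (2 and 4 at an unadjusted p under 0.05). Their summed levels were 152 to 193 CPM in CNO IP and 189.6 to 264 CPM in vehicle IP for the ependymal list, and 20.05 to 21.6 CPM in CNO IP and 20.7 to 29.9 CPM in vehicle IP for the endothelial list. Pan-neuronal markers went the other way, with 10 of 12 above 0 and a median of 0.06. The remaining lists had markers on both sides. Above and below 0 lay 5 and 6 medium spiny neuron, 4 and 5 oligodendrocyte, and 4 and 6 microglia markers. For striatal interneuron markers it was 3 and 5, and for mural markers 3 and 7. The part of cell makeup in the members' values was not tested.

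Atp5d, which encodes a subunit of the central stalk of ATP synthase, had 189.1, 187.5, 185.9 and 204.0 CPM in CNO IP, against 148.8, 157.8, 148.5 and 162.8 CPM in vehicle IP. In input it had 135.8, 150.8, 152.7 and 148.8 CPM after CNO, against 141.9, 144.3, 147.0 and 145.3 CPM after vehicle. Every CNO IP library thus lay above every library of the other 3 groups. The difference in IP was 0.31 (SE 0.05, 1.24-fold, limma adjusted p = 0.0025, higher in 4 of 4 libraries), and in input it was 0.02 (adjusted p = 0.948). The CNO effect in IP exceeded that in input by 0.29 (SE 0.07, limma adjusted p = 0.0183), a call that was lost without replicate 2 of vehicle IP (adjusted p = 0.0512).

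Other genes at the Atp5d locus (chr10:80138632-80145818, + strand, mm10) moved in the same direction by more. They are named after their values were seen. Midn, which encodes midnolin, starts 2453 bases downstream of Atp5d on the same strand, and averaged 117.8 ± 4.11 CPM in CNO IP and 49.2 ± 3.49 CPM in vehicle IP (SD, n = 4 each), a difference of 1.26 (SE 0.06, limma adjusted p = 7.32e-07). Cbarp, listed in the files under its synonym Dos, overlaps Atp5d on the opposite strand and encodes a protein that binds the beta subunit of voltage-gated calcium channels. It averaged 215.5 ± 19.0 CPM in CNO IP and 114.1 ± 6.50 CPM in vehicle IP (SD, n = 4 each), a difference of 0.92 (SE 0.07, limma adjusted p = 2.57e-05). In input Midn differed by 0.19 (adjusted p = 0.593), and neither gene was called there. No source used here gives the strand setting of the counting. Without it the reads of overlapping genes cannot be told apart, and the part of these neighbours in the Atp5d values was not tested.

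Among the accessory subunits of complex I, Ndufv3, whose product belongs to the NADH-oxidizing module, had 54.1, 53.8, 51.4 and 52.3 CPM in CNO IP, against 62.98, 57.9, 60.8 and 60.8 CPM in vehicle IP. Ndufa2 had 37.8, 40.2, 38.4 and 34.4 CPM in CNO IP, against 45.6, 45.1, 42.6 and 45.6 CPM in vehicle IP. Both sets were separate without overlap, with differences of -0.20 (SE 0.04, limma adjusted p = 0.00974) for Ndufv3 and -0.25 (SE 0.05, adjusted p = 0.0133) for Ndufa2, and neither call was lost in any of the 16 alternatives. Ndufb10, a subunit of the membrane arm, had 81.0, 80.6, 84.1 and 80.9 CPM in CNO IP, against 89.0, 93.6, 89.9 and 93.0 CPM in vehicle IP, again without overlap (-0.16, limma adjusted p = 0.0146). Its call was lost in 1 of the 16 alternatives, the replicate block (adjusted p = 0.0663).

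The other 4 lower members were nearer the threshold. Ndufa7 had 61.8, 59.6, 60.5 and 57.7 CPM in CNO IP, against 72.2, 63.9, 67.1 and 68.4 CPM in vehicle IP (-0.18, limma adjusted p = 0.0283). Ndufs6, needed late in complex I assembly, had 25.8, 25.8, 25.8 and 27.6 CPM in CNO IP, against 29.4, 31.0, 27.9 and 31.7 CPM in vehicle IP (-0.19, limma adjusted p = 0.0389). Sdhaf1, which helps to load the iron-sulfur subunit of complex II, had 10.1, 10.4, 9.50 and 9.65 CPM in CNO IP, against 11.4, 11.4, 12.1 and 14.1 CPM in vehicle IP (-0.30, limma adjusted p = 0.0339). In all of these the CNO IP libraries lay below the vehicle IP libraries. Atp5s had 11.2, 9.83, 10.9 and 9.08 CPM in CNO IP, against 12.9, 11.7, 12.5 and 12.5 CPM in vehicle IP (-0.28, limma adjusted p = 0.0443). The calls of Ndufa7, Sdhaf1 and Atp5s were lost in 7 and that of Ndufs6 in 8 of the 16 alternatives. Ndufs6 overlaps Mrpl36, a mitochondrial ribosomal protein gene at -0.26 in CNO IP (limma adjusted p = 0.0267), and Ndufa2 overlaps Tmco6 at -0.40 (limma adjusted p = 0.0137), and the part of shared reads was not tested.

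**Figure D2:**
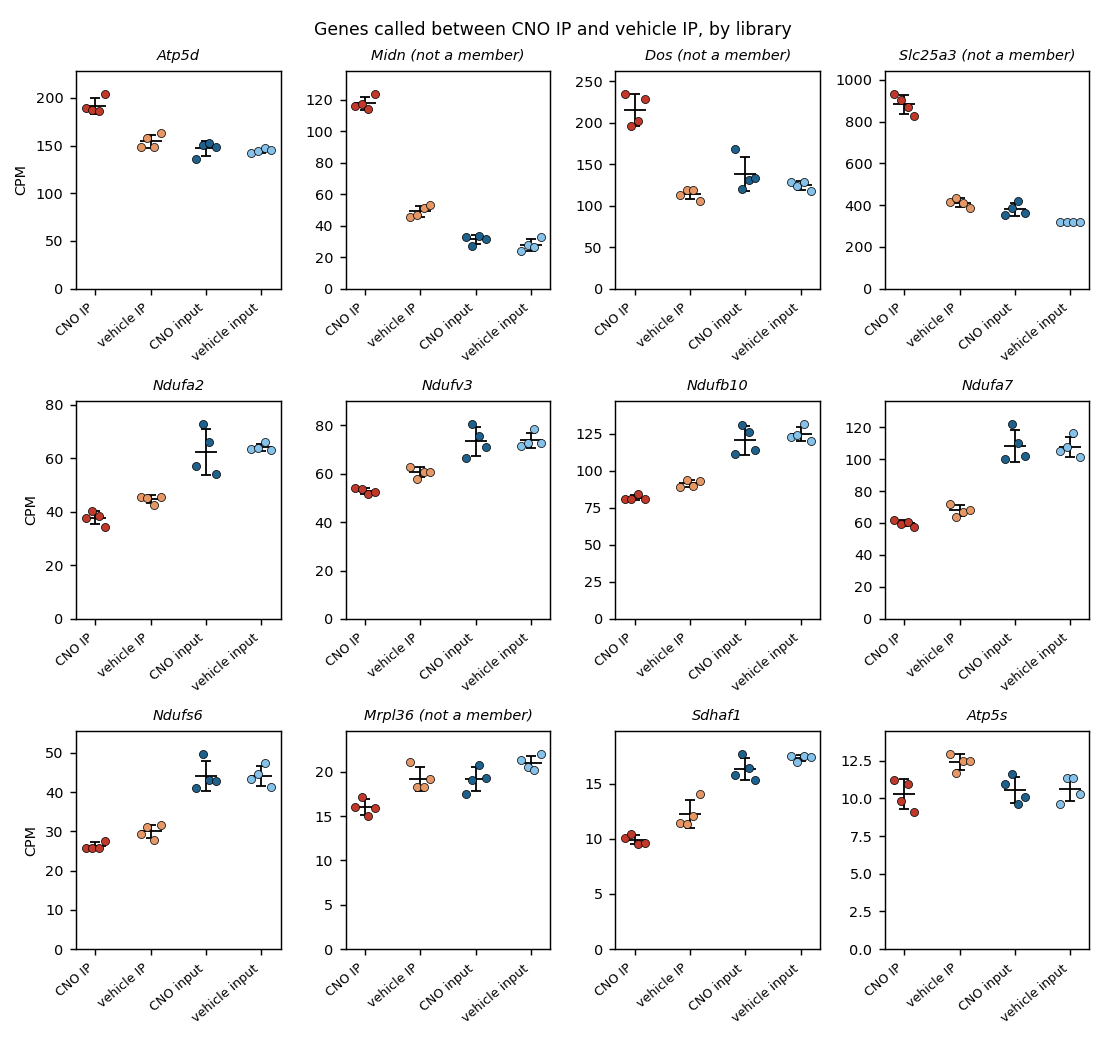
CPM by library for the 8 members called between CNO IP and vehicle IP and for 4 genes outside the group, the Atp5d neighbours Midn and Dos (Cbarp), the phosphate carrier Slc25a3, and Mrpl36, which overlaps Ndufs6. Points are libraries, and the bars give the mean and SD (n = 4). Atp5d in CNO IP lies above all other groups, while for the 7 lower members CNO IP lies just below vehicle IP and the input groups overlap.

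In the tissue as a whole, CNO left no member past the test. Of the 93 members tested between CNO input and vehicle input by limma, 0 were called and 2 had an unadjusted p under 0.05, Atp5sl and Ndufa4l2. An unadjusted p under 0.05 was reached by 1595 of all 15825 genes tested. Over all genes 0.815% were called higher and 0.183% lower there, 0.998% in either direction, so the members' count was near the background. The median difference was -0.03, against -0.02 over all genes, and for 85 of the 93 members the 95% interval lay within ±0.5. Ndufa4l2, a paralog of Ndufa4 known from pericytes, was the 1 member whose input libraries did not overlap (over all genes 3.22% lay higher and 4.03% lower without overlap), with 1.55, 1.52, 1.36 and 1.62 CPM in CNO input, against 2.00, 1.79, 2.28 and 2.31 CPM in vehicle input, and its difference of -0.46 did not pass (limma adjusted p = 0.354). Of the 10 mural markers, Pdgfrb, the pericyte receptor for platelet-derived growth factor, was lower in CNO input by -0.52 (limma adjusted p = 0.0164), and the summed mural level was 149 to 166 CPM in CNO input and 171 to 194 CPM in vehicle input. The part of mural cells in the Ndufa4l2 values was not tested. In bulk RNA fewer cells of a type and less RNA per cell cannot be told apart.

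The size of the CNO effect was called different between IP and input for 1 of the 93 members, Atp5d. The members' median difference of CNO effects was -0.05, against 0.02 over all genes. Of the 93 members, 66 (71.0%) lay below 0, against 46.1% of all genes. Over all 16287 genes tested, 4.18% were called by limma with a difference above 0 and 0.571% with one below 0, 4.75% in all. Of the called genes 88.0% had a difference above 0, against 73.3% with upper quartile scaling. At an unadjusted p under 0.05, 5 members passed, against 2417 of all 16287 genes. The members were Atp5d, Atp5g1 at 0.14, Atp5s at -0.27, Ndufa7 at -0.19 and Ndufv3 at -0.19.

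The second comparison set IP against input, which asks how the RNA on astrocyte ribosomes differs from that of the whole striatum. In CNO mice 17 of 92 members were higher in IP and 57 lower (limma, adjusted p under 0.05), against 40% higher and 35.1% lower of all 15801 genes, 75.1% in either direction. In vehicle mice 18 of 93 were higher and 58 lower, against 37.6% higher and 37.3% lower of all 15903 genes, 74.8% in either direction. The median log2 ratio of the members was -0.47 in CNO mice (0.04 over all genes) and -0.40 in vehicle mice (0.00 over all genes). The direction was shared between the injection groups, which hold different libraries. Of the genes called higher, 16 were called in both, 94.1% of those in CNO mice and 88.9% of those in vehicle mice. Of the genes called lower, 54 were called in both, 94.7% of those in CNO mice and 93.1% of those in vehicle mice. By mouse, the median member ratio was -0.44, -0.58, -0.49 and -0.44 in the CNO mice and -0.36, -0.45, -0.53 and -0.27 in the vehicle mice, while the median over all genes stayed between -0.02 and 0.06. In CNO mice the IP values of 16 members lay above those in input without overlap and of 57 below, against 37.5% and 32.6% of all genes. In vehicle mice 19 lay above and 58 below, against 34.6% and 34.5% of all genes. The median ratio moved with the scaling, to -0.68 in CNO mice and -0.55 in vehicle mice with upper quartile scaling, and to -0.78 in CNO mice and -0.66 in vehicle mice with total reads, which called 11 members higher in each. The median of all genes moved along, to -0.17 in CNO mice and -0.15 in vehicle mice with upper quartile scaling, and to -0.27 in CNO mice and -0.26 in vehicle mice with total reads. The distance of the members from it stayed at -0.51 in CNO mice and -0.40 in vehicle mice. In CNO mice 53.2% of all called genes were higher in IP, against 40.2% with upper quartile scaling and 34.8% with total reads. In vehicle mice 50.2% were, against 40.7% with upper quartile scaling and 34.1% with total reads.

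In complex I the core subunits were mixed and most accessory subunits were lower in IP. Of the 7 core subunits 3 were higher in IP in both injection groups, among them Ndufs1 and Ndufv1 of the NADH-oxidizing module. Ndufs1, which carries iron-sulfur clusters, averaged 240 ± 8.43 CPM in CNO IP and 162 ± 10.8 CPM in CNO input, and 248 ± 15.2 CPM in vehicle IP and 165 ± 6.74 CPM in vehicle input (SD, n = 4 each). The ratio of Ndufs1 was 0.56 (SE 0.06) in CNO mice and 0.59 (SE 0.06) in vehicle mice. That of Ndufv1, the flavin-bearing subunit, was 0.60 in CNO mice and 0.53 in vehicle mice. Ndufv2, the partner of Ndufv1, went the other way, at -0.46 in CNO mice and -0.37 in vehicle mice. The accessory subunits were lower in 21 of 30 in each injection group, with medians of -0.56 in CNO mice and -0.49 in vehicle mice. The exceptions higher in IP in both injection groups were Ndufa10, at 0.36 in CNO mice and 0.35 in vehicle mice, and Ndufa9, at 0.20 in CNO mice and 0.23 in vehicle mice. The Ndufa10 call was lost with total reads in both. The sign of Ndufa9 turned with total reads, to -0.11 in CNO mice and -0.03 in vehicle mice, and with upper quartile scaling in CNO mice, to -0.01. The lowest of them, Ndufa1, a small membrane protein, averaged 25.4 ± 0.824 CPM in CNO IP and 59.3 ± 5.10 CPM in CNO input, and 26.5 ± 1.77 CPM in vehicle IP and 60.7 ± 2.14 CPM in vehicle input (SD, n = 4 each), with a ratio of -1.22 (SE 0.07) in CNO mice and -1.20 (SE 0.06) in vehicle mice. Ndufa4, counted here by its name, followed at -1.16 in CNO mice and -1.07 in vehicle mice.

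Complex II, which also belongs to the citric acid cycle, was the class with the largest share of members called higher in IP, 3 of 4 in both injection groups. Sdha, its flavoprotein, had 658, 645, 647 and 628 CPM in CNO IP, against 322, 339, 356 and 328 CPM in CNO input. In vehicle mice Sdha had 642, 676, 659 and 634 CPM in IP, against 348, 360, 336 and 334 CPM in input. All 8 IP libraries lay far above all 8 input libraries, and the ratios were 0.94 (SE 0.05, limma adjusted p = 7.57e-08) in CNO mice and 0.92 (SE 0.05, 1.89-fold, adjusted p = 1.17e-07) in vehicle mice. Sdhc, a membrane anchor, had 127.2, 137.2, 122.4 and 122.5 CPM in CNO IP, against 68.5, 75.2, 77.2 and 70.1 CPM in CNO input, and 136.2, 131.1, 132.7 and 146.0 CPM in vehicle IP, against 76.8, 76.8, 74.0 and 80.6 CPM in vehicle input. The groups did not overlap, and the ratio was 0.81 (SE 0.06) in CNO mice and 0.82 (SE 0.05) in vehicle mice. Sdhb, the iron-sulfur subunit, was called at 0.19 in CNO mice and 0.24 in vehicle mice. Its sign turned with total reads, to -0.13 in CNO mice and -0.03 in vehicle mice, and with upper quartile scaling in CNO mice, to -0.03. Sdhd, the other anchor, was not called, at -0.10 in CNO mice and -0.05 in vehicle mice. Between CNO IP and vehicle IP the differences of these genes ran from -0.10 to -0.02 and 0 were called by limma, also at an unadjusted p under 0.05.

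In complex III the calls went in both directions. The 2 large core proteins Uqcrc1 and Uqcrc2 and the Rieske iron-sulfur protein Uqcrfs1 were higher in IP in both injection groups, and all 5 small subunits were lower. Uqcrc1 had 329.9, 337.6, 332.2 and 317.0 CPM in CNO IP, against 196.5, 204.1, 212.0 and 195.8 CPM in CNO input, and 334.1, 341.7, 335.7 and 330.1 CPM in vehicle IP, against 206.1, 218.1, 209.3 and 215.8 CPM in vehicle input. Every IP library lay above every input library, with a ratio of 0.70 in CNO mice (SE 0.05, limma adjusted p = 4.3e-07) and 0.66 in vehicle mice (SE 0.04, adjusted p = 4.05e-07). Uqcrfs1 had a ratio of 0.49 in CNO mice and 0.44 in vehicle mice. Uqcrc2 had 0.15 in CNO mice and 0.19 in vehicle mice, which turned to -0.17 in CNO mice and -0.08 in vehicle mice with total reads, and to -0.07 in CNO mice with upper quartile scaling. Its call in CNO mice (limma adjusted p = 0.0422) was lost in 7 of 16 alternatives, 6 of them with 1 library left out, and that in vehicle mice with upper quartile scaling. The small subunits ran from -0.67 to -0.35 in CNO mice and from -0.62 to -0.34 in vehicle mice, with Uqcrh, the hinge protein, at -0.64 in CNO mice and -0.62 in vehicle mice.

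In complex IV none of the 10 common nuclear subunits was called higher in IP, and 9 were lower in both injection groups. The exception was Cox5a, with ratios of -0.03 in each that did not pass. The class median was -0.77 in CNO mice and -0.74 in vehicle mice, the lowest of the complexes. The summed level of the class was 1353 ± 27.5 CPM in CNO IP and 2171 ± 171 CPM in CNO input, and 1434 ± 70.9 CPM in vehicle IP and 2229 ± 117 CPM in vehicle input (SD, n = 4 each). That of complex II was 1008 ± 23.4 CPM in CNO IP and 633 ± 30.2 CPM in CNO input, and 1036 ± 12.2 CPM in vehicle IP and 647 ± 10.5 CPM in vehicle input. The ratio of Cox4i1, which binds adenine nucleotides, was -0.75 in CNO mice and -0.73 in vehicle mice. That of Cox7c, an uncertain value because of shared sequence, was -1.49 in CNO mice and -1.40 in vehicle mice.

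In ATP synthase the alpha and beta subunits of the catalytic head were higher in IP and most other subunits lower. Atp5a1 averaged 1333 ± 56.9 CPM in CNO IP and 884 ± 69.0 CPM in CNO input, and 1317 ± 73.1 CPM in vehicle IP and 921 ± 42.3 CPM in vehicle input (SD, n = 4 each), with a ratio of 0.60 (SE 0.07) in CNO mice and 0.52 (SE 0.06) in vehicle mice. Atp5b had a ratio of 0.44 in CNO mice and 0.37 in vehicle mice, and its call in vehicle mice was lost with total reads. In CNO mice 10 of the 15 were lower and in vehicle mice 9. Atp5e, a small subunit of the central stalk, stood at -1.41 in CNO mice and -1.27 in vehicle mice. Of the membrane part, Atp5j2 stood at -0.92 in CNO mice and -0.83 in vehicle mice, and Atp5k at -0.83 in CNO mice and -0.75 in vehicle mice. Atp5g1 to Atp5g3 encode the same mature ring subunit c. Atp5g1 was lower in IP, at -0.37 in CNO mice and -0.51 in vehicle mice. Atp5g3, the more abundant of the pair per kilobase, was at -0.15 and not called in CNO mice and at -0.13 in vehicle mice (limma adjusted p = 0.0467), a call lost in 8 alternatives. Atp5g2 stood at -1.61 in CNO mice and -1.68 in vehicle mice, and Atp5l at -1.24 in CNO mice and -1.53 in vehicle mice. Both are uncertain, since 87.4% of the windows of Atp5g2 and 68.5% of those of Atp5l are shared. Atp5d was called in CNO mice, at 0.38 (lost with total reads), and not in vehicle mice, at 0.09, which turned to -0.17 with total reads.

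Of the 10 assembly factors, 7 were lower in IP in CNO mice and 9 in vehicle mice. Cox7a2l, known from work on supercomplexes of complexes III and IV, was the lowest. It averaged 67.7 ± 3.89 CPM in CNO IP and 159 ± 16.4 CPM in CNO input, and 61.9 ± 2.65 CPM in vehicle IP and 158 ± 4.49 CPM in vehicle input (SD, n = 4 each). Its ratio was -1.22 (SE 0.08) in CNO mice and -1.36 in vehicle mice (SE 0.05, limma adjusted p = 9.79e-09), the smallest adjusted p of any member in vehicle mice. Of the factors that act on complex I intermediates, Ndufaf4 stood at -0.92 in CNO mice and -0.99 in vehicle mice, and Ndufaf5 at -1.02 in CNO mice and -0.90 in vehicle mice. Sdhaf2, which helps to attach flavin to Sdha, was not called in CNO mice, at 0.10, and higher in vehicle mice by 0.15, which turned to -0.12 with total reads.

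**Figure D3:**
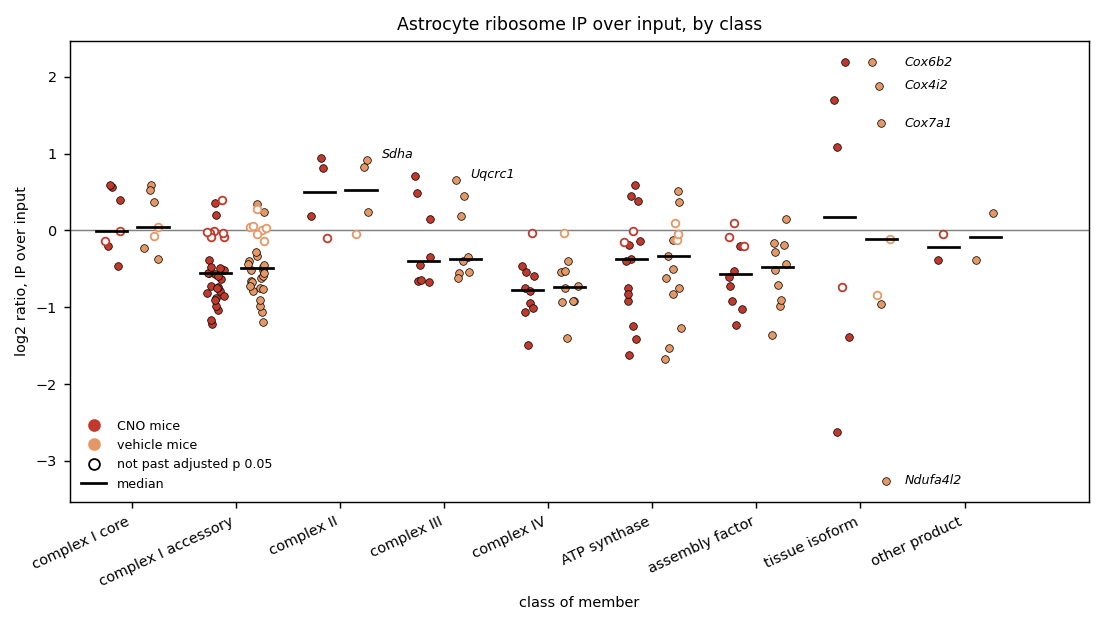
Log2 ratio of IP over input for each member by class, with CNO mice left and vehicle mice right in each class, open circles for members not past an adjusted p of 0.05, and a bar at the class median. The medians are above 0 for complex II (0.50 in CNO mice and 0.53 in vehicle mice) and lowest for complex IV (-0.77 in CNO mice and -0.74 in vehicle mice), and single tissue-restricted isoforms lie far outside the range of the other classes.

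The tissue-restricted isoforms held the members with the largest ratios in both directions. Cox6b2, known from testis, had 26.0, 26.5, 28.5 and 28.3 CPM in CNO IP, against 5.78, 6.77, 5.89 and 5.47 CPM in CNO input. In vehicle mice it had 27.7, 30.4, 31.4 and 37.4 CPM in IP, against 6.41, 6.38, 6.12 and 9.15 CPM in input. The IP and input libraries were far apart, with a ratio of 2.20 in CNO mice (SE 0.08, 4.58-fold, limma adjusted p = 5.42e-09) and 2.19 in vehicle mice (SE 0.14, 4.56-fold, adjusted p = 6.2e-07). Its common counterpart Cox6b1 went the other way, at -0.60 in CNO mice and -0.53 in vehicle mice. Per kilobase, Cox6b2 made up 17.7 ± 0.614% of the pair in CNO IP and 3.02 ± 0.169% in CNO input, and 18.9 ± 1.59% in vehicle IP and 3.48 ± 0.895% in vehicle input (SD, n = 4 each).

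Cox4i2, a low-oxygen isoform known from lung and from mural cells, was a scarcer case of the same pattern. It had 4.05, 5.64, 4.14 and 3.85 CPM in CNO IP, against 0.967, 1.55, 1.45 and 1.53 CPM in CNO input, and 6.09, 4.61, 6.42 and 5.08 CPM in vehicle IP, against 1.93, 1.27, 1.46 and 1.38 CPM in vehicle input. The groups did not overlap, with a ratio of 1.69 (SE 0.19) in CNO mice and 1.89 in vehicle mice (SE 0.17, limma adjusted p = 6.88e-06). Per kilobase, Cox4i2 made up 1.30% of its pair with Cox4i1 in CNO IP and 0.244% in CNO input, and 1.59% in vehicle IP and 0.265% in vehicle input. Cox7a1, the heart and muscle isoform, had 2.79, 4.44, 4.06 and 4.60 CPM in CNO IP, against 1.63, 2.08, 1.79 and 1.85 CPM in CNO input. In vehicle mice it had 4.42, 2.31, 3.37 and 6.94 CPM in IP, against 1.43, 1.08, 1.44 and 2.26 CPM in input. These groups were separate too, but with a wide spread in vehicle IP, and the ratio was 1.09 (SE 0.18) in CNO mice and 1.39 in vehicle mice (SE 0.34, limma adjusted p = 0.00474).

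Ndufa4l2 ran the opposite way. It had 0.347, 0.280, 0.155 and 0.242 CPM in CNO IP, against 1.55, 1.52, 1.36 and 1.62 CPM in CNO input, and 0.419, 0.351, 0.0806 and 0.189 CPM in vehicle IP, against 2.00, 1.79, 2.28 and 2.31 CPM in vehicle input. Every IP library lay below every input library. The ratio was -2.62 (SE 0.28) in CNO mice and -3.26 (SE 0.48) in vehicle mice, and on a scale of log2(CPM + 1) it became -1.004 in CNO mice and -1.30 in vehicle mice. Cox6a2, the muscle isoform of Cox6a1, was lower, at -1.39 in CNO mice and -0.96 in vehicle mice, while Cox6a1 was at -0.54 in CNO mice and -0.55 in vehicle mice. Cox8b and Cox7b2 were near the limit of detection, with group means of 0.0715 to 0.288 CPM for Cox8b and of 0.300 to 0.441 CPM for Cox7b2. Of the mural markers, 3 were higher and 4 lower in IP in CNO mice, and 3 higher and 5 lower in vehicle mice, among the higher ones Notch3 at 3.06 in vehicle mice. The summed mural level was 188 to 221 CPM in CNO IP, 256 to 267 CPM in vehicle IP, 149 to 166 CPM in CNO input and 171 to 194 CPM in vehicle input, and no defining marker was at 0. The part of mural RNA in the values of Cox4i2, Cox7a1 and Ndufa4l2 was not tested.

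**Figure D4:**
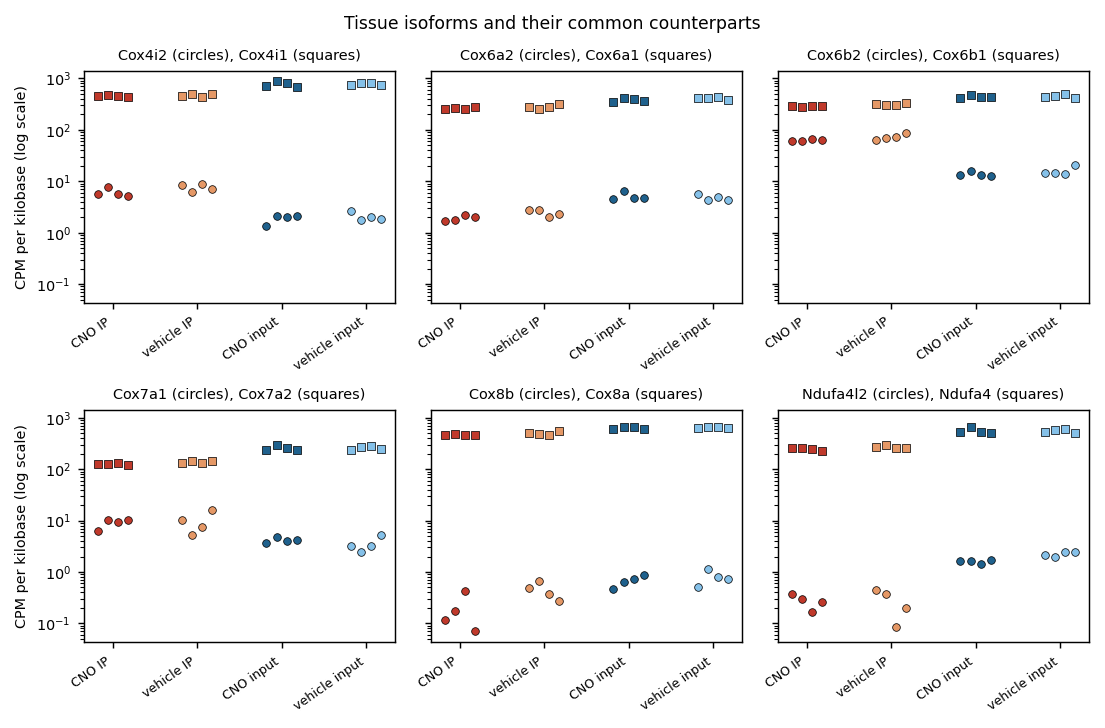
Level in CPM per kilobase (log axis) of tissue-restricted isoforms (circles) and their common counterparts (squares) in each library of the 4 groups. Cox6b2, Cox4i2 and Cox7a1 lie higher in the IP groups than in the input groups while their counterparts lie lower, and Ndufa4l2 lies lower in IP together with Ndufa4.

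The ratio of IP to input went with transcript length. Members are short, with a median of 759 bases against 2664 bases for all genes tested, and those called higher in vehicle mice had a median of 1618.5 bases against 669.5 bases for those called lower. Among members of up to 1000 bases, 3 of 56 were called higher and 42 lower in vehicle mice, with a median of -0.53, and all genes of that length had a median of -0.54. Above 1500 bases 12 of 21 were higher and 7 lower, with a median of 0.19, against 0.08 for all genes of that length. In between, members had a median of -0.22 and all genes -0.18. CNO mice gave -0.60 for the short, -0.14 for the middle and 0.10 for the long members, against -0.56, -0.17 and 0.13 for all genes of the same lengths. Spearman's rho between ratio and length in vehicle mice was 0.37 over the 92 members with a length and 0.22 over all genes, a description over genes of the same libraries. In these 3 classes the medians of the members thus lay close to those of all genes, while Cox6b2, Cox4i2 and Cox7a1 lay far above and Ndufa4l2 far below. In finer classes they lay further apart: up to 500 bases the 13 members had a median of -0.62 and all genes -1.32, and between 1500 and 2000 bases the 10 members had 0.29 and all genes -0.07. The part of length in the ratios of single members was not tested.

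**Figure D5:**
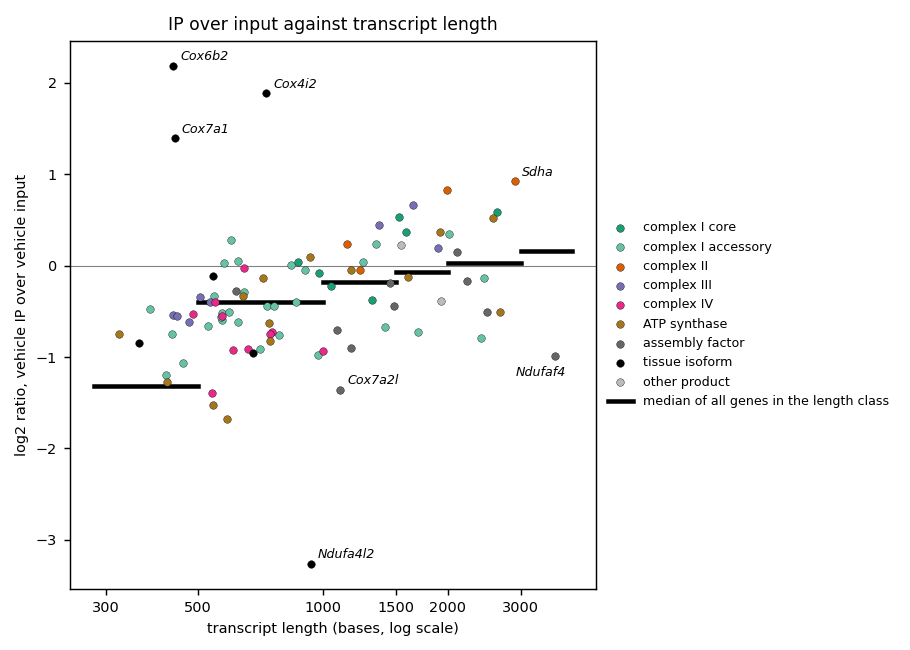
Log2 ratio of vehicle IP over vehicle input against transcript length in bases (log axis) for the 92 members with a length, coloured by class, with black bars at the median of all genes in each length class. Short members lie mostly below 0 and long ones around or above it. Members of up to 500 bases lie mostly above the bar of that class, and the named tissue-restricted isoforms lie far from them.

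Genes of the same pathway outside the group gave a wider view of the IP and input difference. Of all genes tested, 40% were called higher and 35.1% lower in CNO mice, and 37.6% higher and 37.3% lower in vehicle mice. Of 19 genes of the tricarboxylic acid cycle and pyruvate dehydrogenase, 16 were higher in IP and 1 lower in both injection groups, with medians of 0.43 in CNO mice and 0.40 in vehicle mice. Cs, the citrate synthase gene, averaged 458 ± 17.5 CPM in CNO IP and 202 ± 1.83 CPM in CNO input, and 472 ± 28.5 CPM in vehicle IP and 210 ± 9.15 CPM in vehicle input (SD, n = 4 each). Of 8 genes that feed electrons into the chain by other routes or carry cytochrome c, 6 were higher and 2 lower in both, among them Gpd2 of the glycerol phosphate shuttle at 1.38 and Etfdh of fatty acid oxidation at 1.39 in vehicle mice. The 30 subunits and assembly factors of complexes III to V with other names followed the small members, with 20 lower in both and 4 higher in CNO mice and 3 in vehicle mice. Mitochondrial import held 13 lower of 18 in CNO mice and 15 in vehicle mice. Of 77 mitochondrial ribosomal proteins, 43 were lower and 11 higher in CNO mice, and 44 lower and 9 higher in vehicle mice. Of 10 mitochondrial chaperones and proteases, 8 were higher and 2 lower in CNO mice, and 7 and 2 in vehicle mice. Of 11 membrane carriers and channels, 4 were higher in both, with 1 lower in CNO mice and 2 in vehicle mice. The 7 complex I assembly factors with other names had 2 higher and 1 lower in both. The 17 transcriptional regulators had 7 higher and 2 lower in CNO mice, and 6 and 6 in vehicle mice. The cytosolic ribosomal proteins had the lowest medians of these lists, -1.31 in CNO mice and -1.64 in vehicle mice, with 78 called lower in each.

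Between CNO IP and vehicle IP, 28 of the 279 genes of the same lists were higher (10%) and 15 lower (5.38%), against 10.2% and 7.07% of all genes. These lists include the cytosolic ribosomal proteins, which held 20 of the 28 higher genes and 0 of the lower ones. The share called higher is therefore not that of the pathway lists alone. The largest difference belonged to Slc25a3, the carrier that brings phosphate to ATP synthase, which averaged 884 ± 45.4 CPM in CNO IP and 412 ± 20.3 CPM in vehicle IP (SD, n = 4 each), a difference of 1.10 (SE 0.06, 2.15-fold, limma adjusted p = 1.99e-06) that exceeded the effect in input by 0.86. Of 17 transcriptional regulators, 4 were higher and 2 lower. Ppargc1a, a coactivator of mitochondrial biogenesis, averaged 67.0 ± 1.87 CPM in CNO IP and 83.9 ± 8.38 CPM in vehicle IP (SD, n = 4 each), a difference of -0.32 (limma adjusted p = 0.0107), and Ppara, a nuclear receptor for fatty acids, had -0.82. The higher regulators were Ppard at 0.63, Pprc1 at 0.51, Gabpb1 at 0.25 and Ppargc1b at 0.24. Nrf1 (-0.03), Esrra (-0.03), Gabpa (-0.11) and Tfam (-0.05) were not called. Uqcc2, an assembly factor of complex III, was lower by -0.24 and Ttc19, which clears fragments of its iron-sulfur protein, higher by 0.22. The cytosolic ribosomal proteins had 20 of 82 higher (24.4%) and 0 lower by limma (40 and 0 at an unadjusted p under 0.05), with a median of 0.21, against -0.07 for the members. In CNO input, 0 of the 280 genes of these lists were called by limma. At an unadjusted p under 0.05, 14 passed, against 1595 of all 15825 genes.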

How the data were processed

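The files hold, per the labels' protocols, RNA-seq of input and of hemagglutinin-precipitated ribosomes from paired-end libraries made from 100 ng of RNA. The submitters' processing notes list the programs bcl2fastq 2.17, STAR, HTSeq and limma with build mm10. No source used here gives the gene annotation or the strand setting. The deposited values, made by the authors, are log2 CPM with a small prior count, on 17098 lines per library, of which 1 identical line was dropped (17097 genes). Whole reads were recovered from 100% of them to within 0.01 read by solving for each library's normalized size, which supplied depth and CPM. The normalized sizes differed from total reads by factors of 0.880 to 1.14.

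Each comparison was fitted on the log2 values with limma 3.58.1 in R 4.3.3 (eBayes with trend and robust), on the libraries of its own groups, over all genes that held a total of 15 reads or more and whose CPM, in 4 libraries or more, reached that of 10 reads in the median library. Cox8b failed this between CNO IP and vehicle IP and in CNO mice. P-values were adjusted by Benjamini-Hochberg over all genes, with a threshold of 0.05. The difference of CNO effects was the interaction in a fit of all 16 libraries. The fits were tested on simulated data, drawn as independent libraries with the same spread set for every gene. The link between IP and input libraries of the same mouse code was not part of it. No libraries agreed within sampling noise.

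The members and lists were chosen with earlier results of these data known. The values of 1 member are not reported here by name, and it stays in the counts. Named are the members with the largest called changes (up to 8 per direction and comparison), isoform groups, complex II, the most abundant of each complex, and up to 3 called genes of each pathway list. Other members and regulators with values (such as Ndufa9, Ndufa10, Ndufv2, Uqcrfs1, Cox5a, Sdhaf2 and Pprc1) were chosen after their values were seen. Lengths and shared windows come from the GENCODE M21 annotation (92 of 93 members matched) and promoters from RefSeq (78 of 93). IP and input libraries of the same mouse code deviated together, with correlations of 0.210 to 0.572, as the titles' codes imply. Alternatives were no filter, other scalings, voom on recovered reads, log2(CPM + 1), plain eBayes, 1 shared fit, blocks, leaving out each library, and subunits only.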

Additional observations from a re-analysis of the deposited data

Results flagged for a closer look

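In groups of 4 libraries, a single library stood far from the other 3 in 11 of the 208 member groups examined, and chance flags about 1 in 20. Atp5a1 was low in CNO IP replicate 5, with 1249 CPM against 1350 to 1367 CPM in the others. Ndufb10 was high in CNO IP replicate 4 (84.1 CPM, others 80.6 to 81.0) and Ndufs6 in CNO IP replicate 5 (27.6 CPM, others all at 25.8), in both cases toward vehicle IP. Ndufa2 was low in vehicle IP replicate 4 (42.6 CPM, others 45.1 to 45.6), toward CNO IP. In CNO input replicate 3, Ndufa4 (298.2 CPM, others 237.1 to 243.8) and Cox6a2 (4.34 CPM, others 3.08 to 3.18) were high, and in CNO input replicate 2 Cox4i2 was low (0.967 CPM, others 1.45 to 1.55). Cox6b2 was high in vehicle input replicate 5 (9.15 CPM, others 6.12 to 6.41). Low values in vehicle IP were those of Atp5k (52.4 CPM, others 59.7 to 60.9) and Atp5sl (28.5 CPM, others 31.0 to 31.5) in replicate 4 and of Sdhaf2 (47.6 CPM, others 51.6 to 52.3) in replicate 3. The CNO effect on Atp5d differed between IP and input by 0.289, tested as the interaction.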

How the results depend on the processing

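Of the counts and medians, 140 of 144 values with a library left out and 122 of 132 under other alternatives stayed near the main value. Between CNO IP and vehicle IP the 7 lower members became 25 with upper quartile scaling (median -0.13) and 14 with total reads, where all genes moved to -0.06 and -0.05. Leaving out a library gave 3 to 7 lower members, 3 without CNO IP replicate 4, 4 without CNO IP replicate 5 and 3 without vehicle IP replicate 2, with medians of -0.10 to -0.05; the member with a larger effect in IP was then 0 to 1. CNO IP over CNO input had a median of -0.68 with upper quartile scaling and -0.78 with total reads, which called 11 higher; vehicle IP over vehicle input had -0.55 and -0.66, with 11 higher under total reads. With total reads the median of all genes was -0.27 in CNO mice and -0.26 in vehicle mice. Among the named members, reversed signs in CNO mice were with upper quartile scaling Ndufa9 -0.0127, Sdhb -0.0278 and Uqcrc2 -0.0688, and with total reads Ndufa9 -0.11, Sdhaf2 -0.21, Sdhb -0.13 and Uqcrc2 -0.17. In vehicle mice they were Sdhaf2 -0.0038 with upper quartile scaling, and with total reads Atp5d -0.17, Atp5s -0.0457, Ndufa9 -0.0327, Sdhaf2 -0.12, Sdhb -0.0275 and Uqcrc2 -0.0762. With a library left out, CNO IP over input gave 16 to 17 higher, 56 to 59 lower and medians of -0.51 to -0.43, and vehicle IP over input 17 to 18, 56 to 58 and -0.44 to -0.37. The cause of these shifts was not tested.

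With the replicate number as a block, 1 member was higher and 2 lower in CNO IP and 0 were called in input. Same-numbered CNO and vehicle libraries correlated at -0.373 to 0.221, so the numbers do not pair them. With the mouse as a block, IP over input gave 17 higher and 59 lower in CNO mice and 18 and 58 in vehicle mice, and the difference of CNO effects 1 and 0. The block changed no other count of members by over 1.5 times. Over all genes the block called 717 lower in CNO IP (4.6%) and 7 lower in CNO input (0.0442%). It called 222 (1.36%) with a difference of CNO effects below 0. Depth limits Cox8b, Cox7b2, Ndufa4l2, Ndufs5 and Atp5g2, with group means at or under about 2 CPM. The same holds for Atp5l and Cox6a2 in IP, and for Cox4i2 and Cox7a1 in input.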
